A study of Mus musculus with 27 samples.

Results

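Primary mouse macrophages exposed to interleukin-4 (IL-4) for 4 h were compared with untreated cells of the same series, gene by gene, in chromatin-associated RNA. A gene entered the comparison if 3 or more of the 6 libraries gave it a normalised read count of 10 or higher, which kept 11955 of the 45070 genes in the deposited table. The cells were wild-type C57/BL6 bone marrow-derived macrophages (BMDMs), that is, macrophages grown in culture from bone marrow precursors. All of them received the solvent DMSO for 1 h, the untreated ones included. They were then left without stimulus or received 10 ng/ml IL-4 or 10 ng/ml of the bacterial cell wall component lipopolysaccharide (LPS). The untreated cells count as 0 h, and no group was kept for 4 h without stimulus. Time in culture therefore cannot be told apart from the stimulus. RNA was taken between 0.5 and 4 h after the stimulus, in 4 time points, with 3 replicates in each of the 9 groups and 27 samples in all. The comparison of 4 h of IL-4 with untreated cells rests on 6 of these, and IL-4 at 2 h and 0.5 h and LPS at 4 h serve as further references. The labels do not say whether replicates came from separate cultures or animals, so p-values measure the spread between these samples, which may be technical.

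IL-4 is the cytokine that drives alternative activation of macrophages. It binds a receptor built on the IL-4Rα chain (Il4ra), the kinases JAK1 and JAK3 bound to the receptor become active, and they phosphorylate the transcription factor STAT6, which enters the nucleus and binds the palindrome TTCNNNNGAA. Textbook targets in mouse macrophages include the arginase Arg1, the secreted protein Retnla, the mannose receptor Mrc1 and the feedback inhibitors Socs1 and Cish. Chromatin-associated RNA is rich in transcripts that are still being made, so its reads cover introns as well as exons, and long genes collect many of them.

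Promoters of the genes that changed most were searched for this palindrome because STAT6 is the factor downstream of the receptor. RefSeq promoter sequences (GRCm38.p6, 250 bases before to 50 after each start) were matched for 9434 of the tested genes. A match in any promoter of a gene counted. TTCNNNNGAA, which reads the same on both strands, was present for 2164 of all 27025 genes with a RefSeq promoter (8.01%). It was present for 6.87% of the matched tested genes, 8.66% of those higher after IL-4 and 7.30% of those lower. Among the 16 named largest rises 14 could be matched and 5 of these held the word, while 11 of the 16 named largest falls could be matched and 0 held it. In wider sets it was held by 17 of 141 genes with a log2 rise above 2 (12.1%) and 4 of 84 with a fall below −2 (4.76%). These sets were all chosen by the size of the change, and their difference was not tested. The variant with a spacer of 3 bases, TTCNNNGAA, was present for 9.55% of all genes with a promoter, 2 of the 14 named rises and 0 of the 11 named falls. Over all named genes, 8 of the 73 with a promoter held the word (11.0%), and these include Cd36, Il18 and Nlrp3, which fell by less. The windows below are those of the named rises and of these 3 falls, 30 bases each on the gene's own strand, with the word in capitals. Such a match is a description of the letters and not a measured binding site.
Pdcd1lg2, plus strand of chr19:29410827-29410856: catgctccagTTCCTCAGAAaccattctgg
Retnla, plus strand of chr16:48842454-48842483: agaatcataaTTCACAAGAAattgctaaac
Tmem26, plus strand of chr10:68723695-68723724: ctttgaagagTTCTCTGGAAgttggagggg
Gm30605, minus strand of chr8:80395269-80395298: catctgtattTTCTTTTGAAaagtctttca
E230029C05Rik, plus strand of chr7:90029045-90029074: aagttaagtcTTCTATAGAAgataagctaa
Cish, plus strand of chr9:107296649-107296678, spacer of 3: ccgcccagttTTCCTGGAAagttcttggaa
Rasgrp1, minus strand of chr2:117342978-117343007, spacer of 3: gggggcaggaTTCGAAGAAgaactgagggc
Cd36 (lower), minus strand of chr5:17835857-17835886: gtgatgggtcTTCACCAGAAatagaccctt
Il18 (lower), plus strand of chr9:50554644-50554673: tttgagacagTTCCCCAGAAtgcaaatagg
Nlrp3 (lower), plus strand of chr11:59542554-59542583: ggcttcctccTTCCTTTGAAaataaaagca
In these windows the word starts 82 bases before the annotated start of Pdcd1lg2, 145 before that of Retnla and 41 before that of Tmem26, where a further copy lies 227 bases upstream. It starts 103 bases before the start of Gm30605, 104 before that of E230029C05Rik, 120 before that of Rasgrp1, and at the start itself in Cish. A further copy in Cish starts 11 bases after the start and is in lower case in its window. In the genes that fell it starts 46 bases before the annotated start of Il18. In Nlrp3 it lies 122 bases before, and in Cd36 20 after, a further RefSeq start inside the annotated span of the gene. The windows of Nlrp3 and Cd36 are thus not at the annotated start. The variant with 3 bases was also in the promoter of Fcgr1, which fell, and in those of Batf3 and Nop58, which rose. Chil3, at 0 in all libraries, held it too.

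The 6 libraries summed to between 2469768 and 2578543 normalised read counts, and 99% to 99.1% of each sum lay in the tested genes. These sums follow the authors' scaling and are not sequencing depths. Only in IL-4 4 h replicate 1 did the low values skip numbers in the way that multiplied whole reads would, which puts 1 read at 1.1564 to 1.157 normalised counts and the library at 2134630 to 2135738 reads in genes. The depth of the other 5 is unknown. Replicates 2 and 3 resembled each other more than either resembled replicate 1: over the 418 genes with a mean of at least 1000, the SD of the log2 ratio between them was 0.136 at IL-4 4 h and 0.090 in untreated cells, against 0.342 to 0.396 for pairs with replicate 1. The mitochondrial ribosomal RNA mt-Rnr2 took 0.754%, 4.01% and 2.44% of the sum at IL-4 4 h and 0.725%, 2.91% and 2.85% in untreated cells, replicates 1 to 3. All 12 macrophage markers were above the limit in both groups, and their summed value was 13317 to 13588 after IL-4 and 13221 to 13950 without. Of the 12, 3 were higher after IL-4, Adgre1 and Csf1r among them, and 6 lower, Mertk and Cd14 among them. Markers of other cells summed to far less: B cell markers to 23–51 against 15–42, neutrophil markers to 26–44 against 15–29, mast cell, basophil and eosinophil markers to 10–18 against 9–11, dendritic cell markers to 45–51 against 33–69, and T and NK cell markers to 114–226 against 216–270, nearly all of it Cd28, with Cd3e, Cd3g, Ncr1 and Klrb1c at 0 throughout. Stromal markers summed to 177–278 against 53–101, and this followed 1 of 10 genes, Pecam1, at 90, 149 and 147 against 5, 7 and 9. Col1a1 and Col1a2 did not pass the test and Lum was at 0. The part of other cells in the results was not tested further.

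After 4 h of IL-4 the chromatin-associated RNA of 3468 of the 11955 genes (29.0%) differed from untreated cells. Of these, 1809 were higher (15.1%) and 1659 lower (13.9%). Changes were judged on log2(value + 1) with limma at a Benjamini-Hochberg adjusted p of 0.05, the scale of every log2 difference given here. Rises reached further than falls: 183 genes rose by more than 2 on the log2 scale and 84 by more than 3. Of the genes that fell, 112 did so by more than 2 and 13 by more than 3. At a limit of 1 the order was reversed, with 586 genes higher and 640 lower. The median called rise was 0.75, the median called fall −0.85 and the median of all tested genes 0.02. The genes that rose held 14.7% ± 0.686 (SD, n = 3) of the normalised counts in untreated cells and 27.9% ± 0.971 after IL-4, and those that fell went from 30.2% ± 1.24 to 17.0% ± 0.778. These shares describe genes chosen by the same values. Without replicate 2 in any group 1714 genes passed, without replicate 3 1667 and without replicate 1 4439. Values of the 3 libraries in each group did not overlap for 4700 genes (39.3%). Among these were 3373 changed genes, 97.3% of all changed ones, so a lack of overlap adds little to a call.

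**Figure D1:**
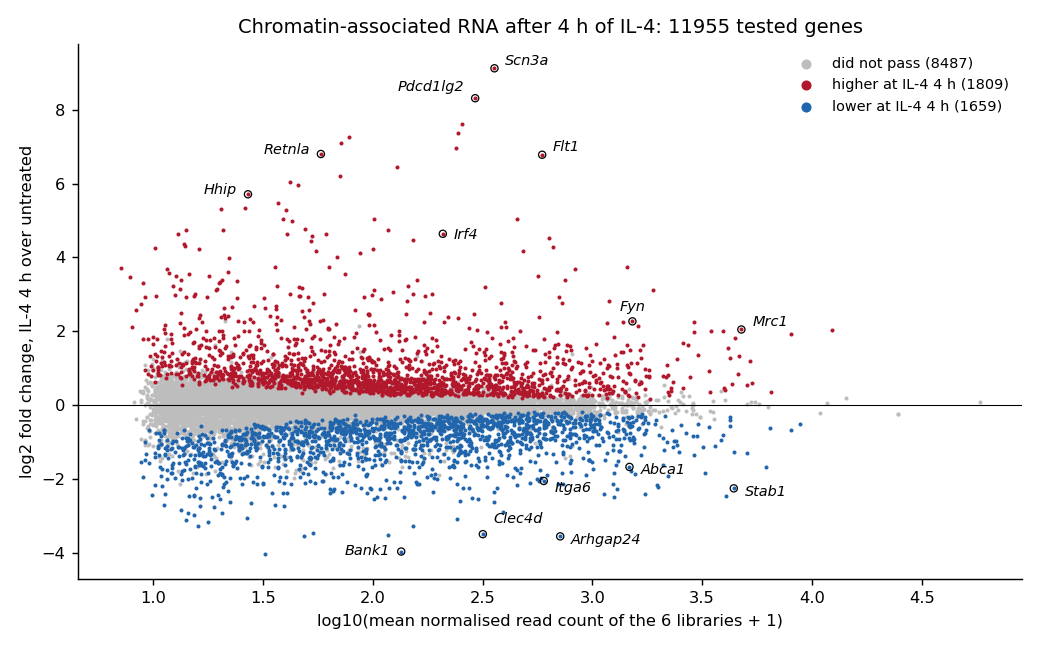
Each point is 1 of the tested genes, with the log10 of its mean normalised read count over the 6 libraries (plus 1) on the x axis and its log2 fold change, IL-4 4 h over untreated, on the y axis. The 1809 genes that rose (red) extend to Scn3a at 9.12, whereas the 1659 that fell (blue) end with A930035F09Rik at −4.04, and unchanged genes (grey) surround 0.

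Protein-coding and non-coding genes were called at like rates, 29.1% of 10028 and 28.8% of 1749. The protein-coding genes that fell were long: their median span in the annotation was 59.5 kb (1363 genes), against 29.1 kb for those that rose (1558) and 23.1 kb for those that did not pass (7107). Levels differed along with length, with a median mean value of 199 in the genes that fell, 119 in those that rose and 59.5 in the rest, and the part of level in being called was not tested. Of the tested genes 5884 (49.2%) overlap another annotated gene, and since the sources used here do not state whether counting used strand, reads of overlapping genes may be shared.

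The largest rises were in genes that untreated macrophages hardly transcribed. Scn3a, a neuronal voltage-gated sodium channel subunit (chr2:65457118-65567492, minus strand), read 551, 731 and 860 at IL-4 4 h and 1, 0 and 0 in untreated cells, a rise of 9.12 ± 0.32 (SE, adjusted p = 1.13e-10). Its summed values stand in a ratio of 2142, with a 95% counting interval of 384 to 84643, so the size of the rise is only loosely fixed. It overlaps Gm34833. Pdcd1lg2 encodes PD-L2, a ligand of the inhibitory receptor PD-1 (chr19:29410919-29472927, plus strand). It read 491, 570 and 686 against 1, 0 and 2, a ratio of 582 with an interval of 199 to 2827. These intervals cover counting error only and take normalised counts as reads.

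The other large rises were in genes of varied function. Rasgrp1, an exchange factor that activates Ras (chr2:117279983-117342877, minus strand), read 405, 504 and 540 against 2, 1 and 3 (log2 7.38 ± 0.19). Flt1, the vascular endothelial growth factor receptor 1 (chr5:147561604-147726011, minus strand), read 1112, 1171 and 1225 against 7, 14 and 9 (6.78 ± 0.24). Cish, a STAT-induced inhibitor of cytokine signalling, read 193, 284 and 284 against 1, 5 and 1 (6.44 ± 0.34). Groups without overlap were a condition for the ranked rises, and in all of these the lowest treated library lay far above the highest untreated one. Socs1, the inhibitor of JAK kinases, read 91, 168 and 157 against 0, 2 and 1, a ratio of 139 with an interval of 47.1 to 675. Tarm1, an activating immunoglobulin-like receptor of myeloid cells, read 128, 169 and 163 and was at 0 in every untreated library, so that it was at least 51.1-fold higher, taking 3 counts per library as the floor.

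Retnla was also at 0 in every untreated library and read 74, 140 and 129 after IL-4, at least 38.1-fold higher. Hhip, which binds and restrains hedgehog ligands, read 44, 49 and 63 against 0 in all 3, at least 17.3-fold higher. The remaining large rises were Tmem26, a membrane protein, with 517, 502 and 500 against 5, 0 and 2 (7.60 ± 0.42), St8sia1, the ganglioside GD3 synthase, with 287, 489 and 644 against 3, 2 and 3 (6.95 ± 0.38), and Kcnd3, a potassium channel subunit, with 89, 80 and 77 against 0, 1 and 0. Kcnd3 has a ratio of 246 with an interval of 43.7 to 9755 and overlaps its antisense gene Kcnd3os. St8sia1, Flt1 and Hhip overlap predicted genes. These 12 genes kept the call under every alternative of processing that tested them, which for Kcnd3 and Hhip leaves out the one with a minimum mean of 50.

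**Figure D2:**
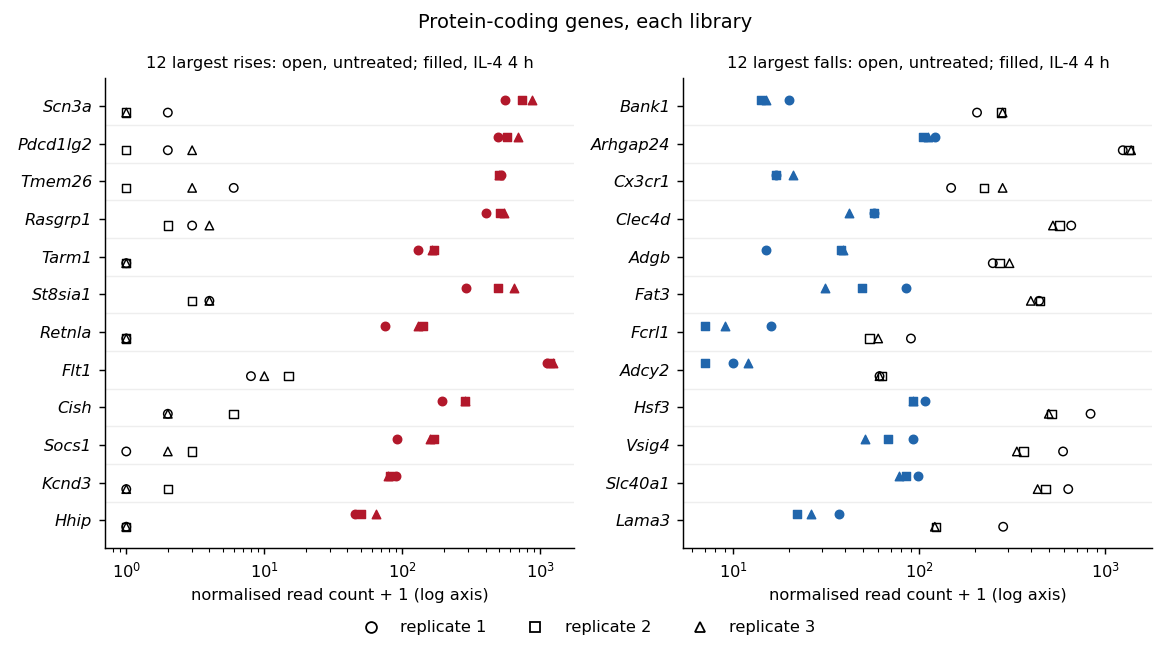
Normalised read count plus 1 (log axis) of the 12 protein-coding genes with the largest rise (left) and the largest fall (right), 1 symbol per library, open for untreated and filled for IL-4 4 h, with a marker shape per replicate. In each gene the 2 groups are apart, which was a condition of the choice. The margin is wider on the left, where Scn3a goes from at most 1 to at least 551.

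The largest falls were smaller than the largest rises. Each named one had to have a mean of at least 50 in untreated cells and groups that did not overlap. Bank1, an adaptor of B cell receptor signalling (chr3:136053363-136326066, minus strand), went from 203, 274 and 279 to 19, 13 and 14, a log2 change of −3.96 ± 0.23 (adjusted p = 1.74e-08). Arhgap24, a GTPase-activating protein of Rac (chr5:102481391-102897937, plus strand), went from 1239, 1329 and 1374 to 120, 103 and 110 (−3.55 ± 0.12, adjusted p = 6.45e-11). Cx3cr1, the fractalkine receptor of monocytes and macrophages, went from 147, 221 and 279 to 16, 16 and 20 (−3.52 ± 0.30). By this choice every treated library lay below every untreated one in all 3 genes. Arhgap24 overlaps Gm30396 and Cx3cr1 overlaps Gm33858, both on the other strand.

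Clec4d, a C-type lectin that senses mycobacterial glycolipid, fell from 654, 567 and 521 to 56, 56 and 41 (−3.49 ± 0.20). The complement receptor Vsig4, a marker of resident macrophages, fell from 591, 362 and 333 to 91, 67 and 50 (−2.60 ± 0.25). Slc40a1, the iron exporter ferroportin, fell from 630, 475 and 431 to 97, 84 and 77 (−2.55 ± 0.15). Replicate 1 was the highest untreated library in these genes. The groups had to be apart for these genes to be named, so their order was the same in each replicate. The other named falls were Adgb (−3.28), a globin-like protein, Fat3 (−3.08), an atypical cadherin, the Fc receptor-like Fcrl1 (−2.73), the adenylate cyclase Adcy2 (−2.71), the heat shock factor Hsf3 (−2.62) and the laminin chain Lama3 (−2.54), with adjusted p-values up to 0.000882. Of these 6 genes all but Fat3 overlap another annotated gene, Hsf3 the protein-coding Heph.

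Genes of the pathway itself come first among the gene lists, which were written from general knowledge with earlier results of these data known. Counts below are of list members that passed the limit on low values, and examples beyond the named genes were picked after their values were seen. Of 32 genes for the IL-4 receptor, its JAK kinases, STAT6 and their regulators, 29 were tested, 10 rose, 7 fell and 12 did not pass (58.6% called, against 29.0% of all genes), with a median of 0.11. The receptor chain Il4ra read 612, 618 and 676 against 427, 397 and 471, a rise of 0.56 ± 0.17 (adjusted p = 0.0214). The call did not hold without replicate 2 (adjusted p = 0.175) or 3 (0.119), without IL-4 4 h replicate 3 (0.0731), or without untreated replicate 1 (0.0509) or 2 (0.0797). Il13ra1, the chain that pairs with IL-4Rα in the type II receptor, fell from 59, 47 and 44 to 14, 10 and 9 (−2.10 ± 0.29), and overlaps Gm42406.

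The kinases of the pathway differed in direction. Jak2, which serves the type II receptor, rose from 138, 168 and 176 to 374, 468 and 443 (1.41 ± 0.16). Jak3 read 49, 85 and 64 against 98, 99 and 84, with overlap, and its call (−0.53 ± 0.18, adjusted p = 0.0446) was lost in 13 of the alternatives, among them those without any 1 replicate number (adjusted p of 0.0585 to 0.203) and without any 1 of the 6 libraries except IL-4 4 h replicate 2 (0.0511 to 0.186). Jak1 read 1007, 898 and 948 against 1238, 1014 and 1105, a difference of −0.23 with an adjusted p of 0.114, which became 0.00697 once replicate number entered as a block. STAT6 itself did not pass, at 180, 221 and 203 against 209, 245 and 225 (−0.17, adjusted p = 0.332). Jak1 and Stat6 overlap other annotated genes.

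Several negative regulators rose. Besides Cish and Socs1, the related Socs2 rose from 1, 1 and 1 to 29, 23 and 15 (log2 3.50), the adaptor Dok2 rose from 29, 20 and 36 to 108, 95 and 105 (1.86 ± 0.23), and the JAK phosphatase Ptpn2 rose from 202, 196 and 193 to 445, 399 and 393 (1.06 ± 0.07). Socs3 was under the limit, with means of 2.67 and 3.33. Downstream, the phosphatase Inpp5d (SHIP1) fell from 2499, 2507 and 2620 to 1357, 1495 and 1519 (−0.80 ± 0.08). The count of 7 lower genes became 4 without replicate 2 or replicate 3, and also without IL-4 4 h replicate 1 or 3 or untreated replicate 1 or 3 alone.

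Among the transcription factors linked to IL-4 or alternative activation, 12 of 25 tested rose and 3 fell, against 15.1% of all genes higher and 13.9% lower, with a median of 0.45. Irf4, an interferon regulatory factor that acts downstream of STAT6, read 361, 426 and 411 against 21, 16 and 10 (4.64 ± 0.26). Ppargc1b, the coactivator PGC-1β of mitochondrial genes, read 1363, 1138 and 1284 against 83, 62 and 52 (4.27 ± 0.29), and microRNA gene Mir378a lies inside it. Batf3, a factor of dendritic cell development, read 141, 72 and 100 against 5, 5 and 4 (4.17 ± 0.32). Every treated library of these 3 genes lay above every untreated one, and 97.3% of all changed genes likewise had no overlap.

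Smaller rises were seen for Egr2, an early growth response factor (45, 33 and 40 against 2, 1 and 5; log2 3.60), for Nfil3, a basic leucine zipper factor (202, 146 and 177 against 25, 22 and 17, 2.98), for Klf4, which cooperates with STAT6 (15, 31 and 32 against 2, 1 and 5, 2.96) and for the growth regulator Myc (49, 38 and 34 against 6, 14 and 9, 2.01). Pparg, the nuclear receptor of lipid metabolism, read 1305, 786 and 807 against 986, 742 and 689, with overlap. Its difference of 0.24 had an adjusted p of 0.426, and 0.0260 with the replicate block. The fallen factors were the clock-linked repressor Bhlhe41 (−1.87), Nr1h3, the sterol sensor LXRα (−1.36), and the cAMP response factor Crem (−0.76). The number of lower factors was 1 without replicate 2, without IL-4 4 h replicate 1 or 3, or without untreated replicate 2 or 3, and 0 without replicate 3.

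Effectors of alternative activation had the highest median and the highest share of called genes among the 15 lists. Of 32 genes 18 were tested, 12 rose, 3 fell and 3 did not pass (83.3% called, against 29.0% of all genes). The median was 2.14, which is the same with Retnla at its bound. Members such as Pdcd1lg2, Retnla and Mgl2 entered only through their IL-4 4 h values. Part of this median and share therefore follows from the limit on low values. Mrc1 read 8200, 7113 and 7664 against 2386, 1541 and 1708 (2.05 ± 0.14, adjusted p = 7.05e-08). Mgl2, a galactose-binding lectin, read 148, 56 and 77 against 7, 1 and 1 (4.78 ± 0.53), and Arg1 read 37, 61 and 85 against 6, 7 and 15 (2.61 ± 0.42). These groups did not overlap, although the treated libraries of Mgl2 and Arg1 themselves differed by more than 2-fold.

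The transferrin receptor Tfrc rose from 47, 27 and 29 to 355, 189 and 206 (2.81), and the β-glucan receptor Clec7a from 127, 153 and 144 to 525, 700 and 654 (2.13). In the opposite direction, the scavenger receptor Stab1 fell from 9175, 6265 and 6428 to 1831, 1404 and 1330 (−2.25), Msr1 from 551, 810 and 865 to 197, 163 and 134 (−2.16) and the haemoglobin scavenger Cd163 from 430, 349 and 383 to 179, 256 and 291 (−0.70). All 3 fallen members are scavenger receptors. Atp6v0d2, a proton pump subunit, read 280, 65 and 84 against 50, 19 and 17, a difference of 2.14 that missed the threshold (adjusted p = 0.0538). Of the 14 untested members, Chil3 was listed at 0 in all libraries, Ccl24 had means of 13.3 and 0.667, and Cdh1 of 13.0 and 0.

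Tyrosine kinases changed in both directions, with 10 of 31 tested higher and 7 lower (54.8% called, against 29.0% of all genes, median 0.05). Apart from Flt1, Fyn, a Src family kinase, read 2721, 2269 and 2565 against 428, 570 and 571 (2.27 ± 0.12), and Matk, which restrains Src kinases, read 76, 75 and 90 against 11, 20 and 14 (2.38 ± 0.20). The Src family member Lyn went the other way, from 3475, 3022 and 3100 to 1813, 1323 and 1274 (−1.14 ± 0.14). The focal adhesion-related kinase Ptk2b (−1.09) and Syk (−0.80), which signals from Fc receptors and lectins, also fell. The count of lower kinases became 4 without replicate 3.

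In antigen presentation and costimulation 6 of 18 tested genes rose and 4 fell (55.6% called, against 29.0% of all genes, median 0.12). Cd274, which encodes PD-L1, read 413, 291 and 287 against 51, 28 and 44 (log2 3.0 ± 0.23). Cd40, the receptor for T cell CD40 ligand, read 200, 361 and 350 against 44, 27 and 43 (2.95 ± 0.25), and the costimulatory ligand Cd86 read 351, 243 and 255 against 151, 125 and 100 (1.17 ± 0.23). With Pdcd1lg2, both ligands of PD-1 were thus higher in every treated library than in any untreated one. Cd80, which shares receptors with Cd86, fell instead, from 50, 40 and 50 to 12, 15 and 15 (−1.67 ± 0.22). The invariant chain Cd74 read 125, 89 and 102 against 45, 17 and 36 (1.75 ± 0.42), and the checkpoint receptor Havcr2 (TIM-3) fell from 79, 127 and 122 to 25, 46 and 41 (−1.54 ± 0.37), but neither call held without replicate 2 (adjusted p = 0.0729 for Cd74 and 0.0618 for Havcr2) or replicate 3 (0.0584 and 0.0967). Without replicate 3 the counts were 3 higher and 1 lower, and without replicate 2 there was 1 lower gene.

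Receptors and inflammasome genes that sense microbes went down or did not pass. Of 30 genes, all tested, 15 fell and 0 rose (against 13.9% of all genes lower), with a median of −0.54. With the replicate block 19 fell and 2 rose, and 2 also rose without replicate 1. Tlr13, which senses bacterial ribosomal RNA, fell from 117, 104 and 135 to 37, 22 and 14 (−2.34 ± 0.27), and Tlr2, the lipopeptide receptor, from 60, 58 and 57 to 10, 20 and 15 (−1.94 ± 0.31). Nod2, the sensor of muramyl dipeptide, fell from 59, 67 and 74 to 17, 31 and 32 (−1.34 ± 0.21). Treated and untreated libraries of these genes were apart, as in 97.3% of all changed genes.

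The lectins Clec4n and Clec4e and the flagellin receptor Tlr5 fell at low levels (log2 −2.55, −2.71 and −2.19), and the DNA sensor Aim2 fell from 338, 510 and 526 to 152, 245 and 244 (−1.10 ± 0.26). Nlrp3, the inflammasome sensor, fell from 427, 335 and 408 to 294, 243 and 249 (−0.57 ± 0.13, adjusted p = 0.00367, and 0.0682 without replicate 3). Tlr4, the receptor of LPS, read 362, 459 and 504 against 304, 356 and 388, a difference of 0.33 that did not pass (adjusted p = 0.321) but reached 0.00512 with the replicate block. Among 30 inflammatory cytokines and chemokines 7 were tested and 2 passed (28.6% called, close to the 29.0% of all genes). Cxcl16, a transmembrane chemokine, fell from 119, 150 and 144 to 44, 45 and 34 (−1.73 ± 0.20), and Il18 from 70, 113 and 113 to 30, 52 and 57 (−1.09 ± 0.30, adjusted p = 0.0121). Il18 did not pass without replicate 2 (adjusted p = 0.146), replicate 3 (0.0721), IL-4 4 h replicate 1 (0.0584) or untreated replicate 2 (0.0525), and the count of 2 became 1 in the same 4 settings. Most of this list was near 0 in both groups, and Il1b read 8, 7 and 1 against 6, 9 and 24.

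Of 31 tested interferon-responsive genes 13 fell, 3 rose and 15 did not pass (51.6% called, against 29.0% of all genes, median −0.58). Mx2 fell from 101, 91 and 141 to 38, 48 and 43 (−1.33 ± 0.19), Mx1 from 80, 67 and 102 to 40, 37 and 25 (−1.27 ± 0.28) and Oas3 from 32, 47 and 86 to 14, 25 and 29 (−1.19 ± 0.33), all of them antiviral effectors. Mx1 did not pass without replicate 3 (adjusted p = 0.140), and Oas3 did not pass without replicate 2 (0.113), replicate 3 (0.0968), IL-4 4 h replicate 1 (0.0660) or untreated replicate 3 (0.0702). Among the 3 higher members were the transcription factors Irf7 and Stat2. Irf7 read 60, 88 and 96 against 21, 20 and 25 (1.82 ± 0.22) and Stat2 read 283, 397 and 424 against 194, 225 and 245 (0.72 ± 0.14). Without replicate 3 the number of lower genes was 5, and without replicate 2 the number of higher genes was 1.

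Adhesion and chemotactic receptors held the lowest median of the lists, −1.07. Of 27 tested genes 15 were lower and 4 higher (70.4% called, against 29.0% of all genes). The chemokine receptor Ccr2 of inflammatory monocytes fell from 44, 97 and 97 to 15, 19 and 16 (−2.10 ± 0.42, adjusted p = 0.00167, and 0.0736 without replicate 3). The complement receptor C5ar1 fell from 217, 180 and 198 to 71, 38 and 37 (−2.07 ± 0.35). Among integrin chains, Itga6 fell from 1080, 963 and 859 to 224, 235 and 237 (−2.05 ± 0.14) and Itga4 from 974, 1152 and 1272 to 245, 382 and 330 (−1.84 ± 0.16), whereas Itgb3, the β3 chain that pairs with the αv integrin, rose from 15, 13 and 9 to 103, 110 and 102 (3.02 ± 0.17). The partner chain Itgav did not pass (−0.24). The 4 higher genes became 2 without replicate 2, without replicate 3, without IL-4 4 h replicate 1, or without untreated replicate 2 or 3.

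**Figure D3:**
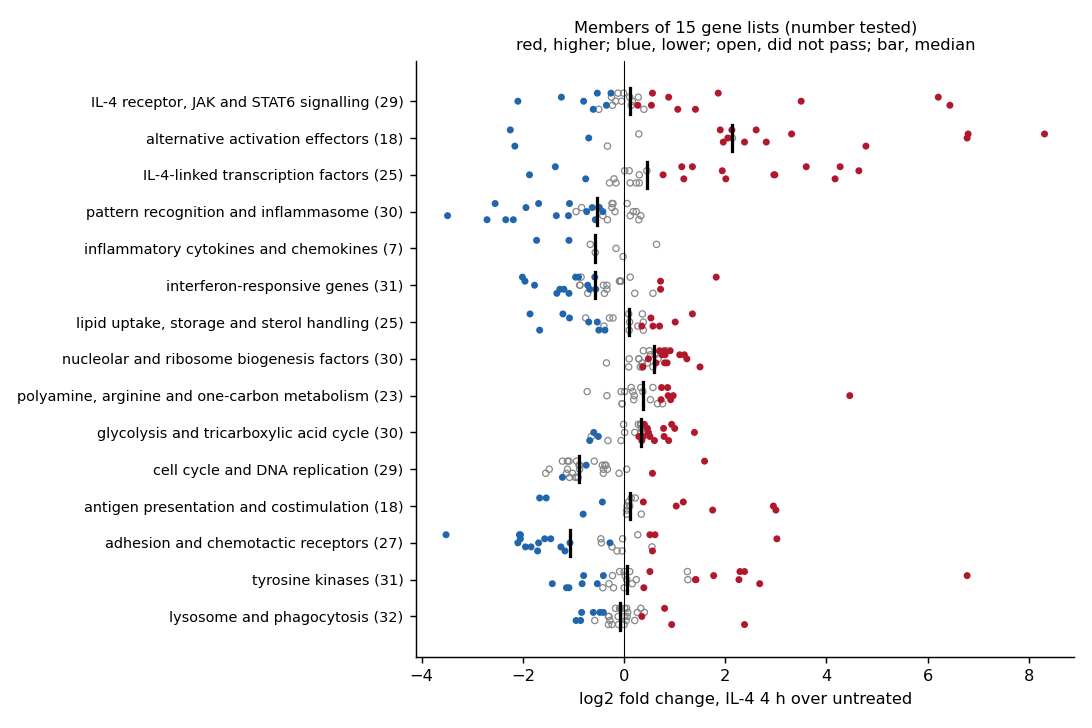
Log2 fold change, IL-4 4 h over untreated (x axis), of each tested member of 15 gene lists (rows, number tested in parentheses), red where higher, blue where lower, open where the test was not passed, with a bar at the list's median. Alternative activation effectors, some of which entered through their IL-4 4 h values alone, have the highest median, 2.14. Adhesion and chemotactic receptors have the lowest, −1.07. No nucleolar factor is lower and no pattern recognition gene is higher in this fit.

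Lipid genes were split, with 6 of 25 tested higher and 8 lower (56.0% called, against 29.0% of all genes, median 0.09). The cholesterol exporters diverged: Abca1 fell from 2734, 1967 and 1984 to 1032, 584 and 548 (−1.67 ± 0.31) and Abcg1 rose from 194, 177 and 172 to 533, 387 and 482 (1.35 ± 0.24). The fatty acid-activating enzyme Acsl3 fell from 108, 141 and 88 to 22, 34 and 35 (−1.86 ± 0.20), and the scavenger receptor Cd36 from 334, 274 and 356 to 220, 102 and 116 (−1.21 ± 0.33, adjusted p = 0.0136). Cd36 did not pass without replicate 2 (adjusted p = 0.156), replicate 3 (0.162), or IL-4 4 h replicate 2 (0.0649) or 3 (0.0553), and Abcg1 did not pass with all 27 samples in the fit (0.0555). Fatty acid synthase (Fasn) rose from 42, 47 and 42 to 84, 103 and 81 (1.01 ± 0.16). The counts were 3 higher without replicate 2 or replicate 3, 5 lower without replicate 2, IL-4 4 h replicate 3 or untreated replicate 1, and 4 lower without replicate 3.

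Nucleolar and ribosome biogenesis factors rose or did not pass, with 14 of 30 tested higher and 0 lower (46.7% called, against 15.1% of all genes higher) and a median of 0.59. The changes were small. Mybbp1a, a nucleolar Myb-binding protein, read 101, 78 and 93 against 48, 49 and 46 (0.91 ± 0.16), and Utp20, a processome component, read 199, 116 and 126 against 68, 80 and 89 (0.85 ± 0.20). Nop58 (0.81) and nucleolin (Ncl, 0.79) host small nucleolar RNA genes in their introns, and Ncl, at 140, 70 and 68 against 48, 52 and 50, lost its call in 9 alternatives, among them those without replicate 2 or 3, without any 1 untreated library, and without IL-4 4 h replicate 1 (adjusted p of 0.0663 to 0.140 without 1 of these). Without replicate 2 the count was 5, without replicate 3 6, without IL-4 4 h replicate 1 7 and without untreated replicate 2 8, so that this list depended on single libraries.

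Polyamine, arginine and one-carbon metabolism had 7 of 23 tested genes higher and 0 lower (30.4% called, close to the 29.0% of all genes, median 0.37), with 1 lower gene without untreated replicate 1 or without replicate 1. The arginine transporter Slc7a2 stood out, at 271, 285 and 319 against 12, 14 and 11 (4.46 ± 0.14, adjusted p = 4.56e-11). The folate enzyme Mthfd1 (0.97 ± 0.16), the purine enzyme Atic (0.87 ± 0.18) and the antizyme Oaz2 (0.74 ± 0.12) rose by less. Glycolysis and the tricarboxylic acid cycle had 14 of 30 tested genes higher and 3 lower (56.7% called, against 29.0% of all genes, median 0.34). With the replicate block 5 were lower. The glucose transporter Slc2a1 read 94, 88 and 92 against 50, 45 and 46 (0.94 ± 0.11).

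The lysosomal sugar transporter Slc2a6, at 119, 174 and 198 against 52, 68 and 143, overlapped between the groups (log2 1.00 ± 0.30, adjusted p = 0.0203). Its call was lost without replicate 2 (adjusted p = 0.280), IL-4 4 h replicate 2 or 3 and untreated replicate 1 or 2 (0.0639 to 0.0940). Pyruvate kinase (Pkm), the last step of glycolysis, fell from 268, 305 and 342 to 209, 190 and 171 (−0.68 ± 0.15), and did not pass without replicate 2 (adjusted p = 0.0756) or 3 (0.0937). In the glycolysis and tricarboxylic acid cycle list, 5 genes were higher without replicate 3, 6 without replicate 2, 7 without untreated replicate 2, and 9 without IL-4 4 h replicate 3 or untreated replicate 1. The lower genes of that list numbered 5 without replicate 1, 1 without replicate 2 or untreated replicate 3, and 0 without replicate 3.

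Few cell cycle and DNA replication genes passed: of 29 tested 2 were higher, 2 lower and 25 did not pass. Called were 13.8%, against 29.0% of all genes, and the median was −0.89. Replicate 1 stood apart in these genes. Top2a, topoisomerase IIα of dividing cells, read 27, 149 and 155 after IL-4 and 38, 488 and 430 in untreated cells, and the proliferation marker Mki67 read 50, 218 and 189 against 72, 490 and 429. Each replicate read lower after IL-4 than its untreated counterpart, both replicate 1 libraries were low, and the groups overlapped. With the replicate block 19 genes of this list fell, and without replicate 1 22 fell. Without untreated replicate 1 alone the number was 6, and the 2 higher genes became 1 without replicate 2, without replicate 3, and without IL-4 4 h replicate 2 or 3 or untreated replicate 1 or 2. The genes that did pass were Cdkn1a, the cell cycle inhibitor p21, at 255, 286 and 335 against 70, 91 and 137 (1.59 ± 0.22), Cdk4 (0.56), Cdk6, which fell from 834, 548 and 568 to 410, 200 and 247 (−1.22 ± 0.23), and its partner cyclin Ccnd3, which fell from 210, 183 and 233 to 115, 121 and 133 (−0.75 ± 0.11).

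In lysosome and phagocytosis genes 4 of 32 tested rose and 6 fell (31.2% called, close to the 29.0% of all genes, median −0.08). The inhibitory Fc receptor Fcgr2b rose from 235, 160 and 158 to 781, 1077 and 1012 (2.38 ± 0.16), while the activating high-affinity receptor Fcgr1 fell from 87, 45 and 85 to 45, 33 and 36 (−0.86 ± 0.26), with 1 tied value between the groups. Fcgr1 did not pass without replicate 3 (adjusted p = 0.264), without IL-4 4 h replicate 2 or 3 (0.0784 and 0.0639) or without untreated replicate 1 or 3 (0.0894 and 0.0916). Cathepsin Z (Ctsz) rose from 275, 179 and 179 to 436, 354 and 404 (0.94 ± 0.20) and cathepsin L (Ctsl) fell from 79, 124 and 111 to 51, 51 and 56 (−0.95 ± 0.18). Ctsz did not pass without replicate 2 (adjusted p = 0.0565) or 3 (0.0714), nor Ctsl without replicate 2 (0.0599). Without replicate 2 or replicate 3 the higher genes numbered 2, and the lower ones 3 and 2. Without IL-4 4 h replicate 3 there were also 2 lower genes.

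Non-coding genes that overlap no other annotated gene were named separately, so that no reads shared with an overlapping gene enter their values. Gm30605 (chr8:80313073-80395185, minus strand) read 985, 1226 and 1441 against 51, 62 and 42 (4.53 ± 0.20, adjusted p = 1.09e-09). E230029C05Rik read 95, 67 and 71 against 24, 27 and 24 (1.58 ± 0.15), Gm32098 read 435, 380 and 403 against 197, 180 and 159 (1.18 ± 0.09), and Gm4258 read 953, 864 and 1036 against 382, 433 and 471 (1.15 ± 0.17). The largest falls of this kind were 5430437J10Rik (−2.15 ± 0.20), Gm31223 (−1.44 ± 0.15), 4933406I18Rik (−1.17 ± 0.22) and Gm26520 (−1.16 ± 0.36). Gm26520, at 27, 22 and 33 against 76, 60 and 51, did not pass without replicate 2 (adjusted p = 0.214), replicate 3 (0.0518), IL-4 4 h replicate 1 (0.0569) or 2 (0.0905), or untreated replicate 1 (0.0870) or 2 (0.0600).

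How the state at 4 h related to earlier times was asked with the same fit. Against IL-4 at 2 h, 826 genes (6.91%) differed, 368 of them higher and 458 lower at 4 h. This count was 1913 with the replicate block, 1811 without replicate 1, 33 without replicate 2 and 48 without replicate 3. Against IL-4 at 0.5 h, 3674 genes (30.7%) differed, 2052 higher and 1622 lower at 4 h, and 1607 without replicate 2 and 1545 without replicate 3. Among 93 tested named genes, 18 differed from 2 h and 67 from 0.5 h. Most named genes were chosen by their 4 h values, so these counts partly follow from that choice.

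Some genes differed between 2 h and 4 h in the direction of their change. Retnla averaged 0.333 at 0.5 h, 2.67 at 1 h and 10.3 at 2 h before reaching 114, and the step from 2 to 4 h was 3.31 (adjusted p = 0.000662). Scn3a went from a mean of 187 at 2 h to 714 (1.94, adjusted p = 0.00205), and Kcnd3 from 13.7 to between 77 and 89 (2.52, adjusted p = 0.00274). The calls of both were lost without replicate 2, without replicate 3, and with replicates 2 and 3 averaged (adjusted p up to 0.123 for Scn3a and 0.147 for Kcnd3), and that of Retnla without replicate 3 (0.0643). Arhgap24 lay within its untreated spread or close to it through 1 h, with means of 1291 at 0.5 h and 1252 at 1 h against 1314 without stimulus, and then dropped to 596 and 111 (4 h against 2 h −2.42, adjusted p = 7.63e-08). Its 3 libraries at 2 h lay between 581 and 605, apart from those at 4 h.

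Other genes had higher means at an earlier time than at 4 h. Il4ra averaged 785 at 0.5 h, 1191 at 1 h and 1391 at 2 h and was 635 at 4 h (−1.13 against 2 h, adjusted p = 0.00103). Mrc1 averaged 15654 at 1 h and 12320 at 2 h before 7659 at 4 h (−0.68 against 2 h, adjusted p = 0.00800). Both of these calls against 2 h were lost in the same 3 settings as those of Scn3a and Kcnd3 (adjusted p up to 0.0844 for Il4ra and 0.298 for Mrc1). Cd36 averaged 3350 at 0.5 h, more than in untreated cells, and was at 151 at 2 h and below its untreated libraries at 4 h (−4.49 against 0.5 h, adjusted p = 3.5e-07). Socs1 was at 133 at 0.5 h and 196 at 2 h, and its 4 h values did not pass against either time.

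**Figure D4:**
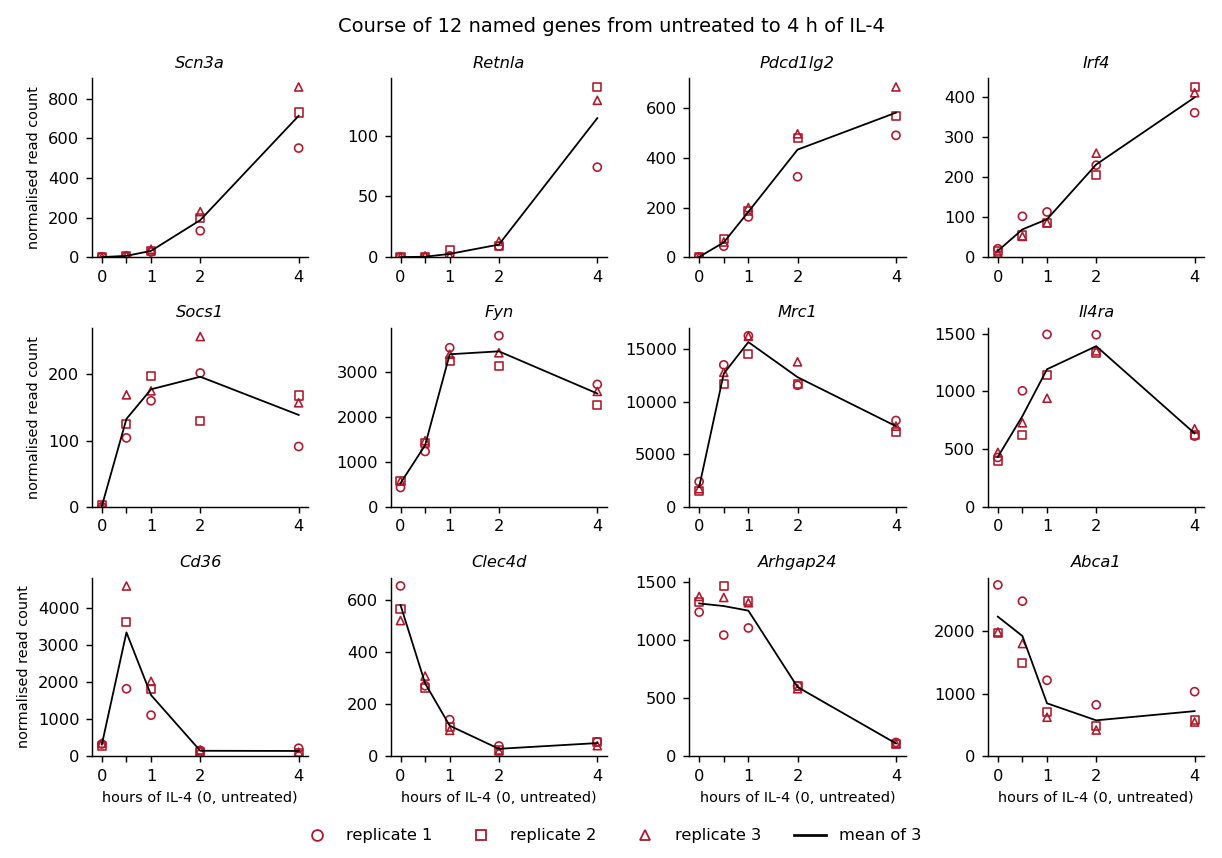
Normalised read count (y axis, from 0) of 12 named genes over hours of IL-4 (x axis, 0 for untreated), with 1 symbol per library and a line through the mean of 3. Scn3a and Retnla rise most between 2 and 4 h, Mrc1 and Il4ra peak earlier, Cd36 peaks at a mean of 3350 at 0.5 h, and Arhgap24 still has a mean of 1252 at 1 h.

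The same time point of LPS served as a reference for what was shared with an inflammatory stimulus. Between IL-4 4 h and LPS 4 h 8340 genes (69.8%) differed, 5537 higher and 2803 lower with IL-4, in a fit of all 27 samples. Genes entered by their values in the IL-4 4 h and untreated libraries alone. Genes transcribed only with LPS were thus left out, such as Il1b (mean 1471 with LPS), and the balance of higher and lower genes is tied to this filter. The median difference over all tested genes was 0.46 under the authors' scaling, 1.07 with equal totals and 0.12 with median-of-ratios scaling, so differences near these sizes carry little. The values of both stimuli are given side by side with the untreated ones, which both share as controls.

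Several of the genes higher after IL-4 had LPS means below the untreated ones. Irf4 averaged 399 with IL-4, 15.7 in untreated cells and 3.33 with LPS (IL-4 against LPS 6.78, adjusted p = 4.83e-14). Mrc1 averaged 7659, 1878 and 102 (6.21), and Itgb3 averaged 105, 12.3 and 1.00 (5.87). Others had means above the untreated one with both stimuli. Slc7a2 averaged 292 with IL-4, 12.3 in untreated cells and 1726 with LPS (−2.56), Cd274 averaged 330, 41.0 and 3444 (−3.40) and Cd40 averaged 304, 38.0 and 4522 (−3.90). Rasgrp1 averaged 483, 2.00 and 192 (1.32) and Tarm1 read 447 to 576 with LPS, above its IL-4 libraries.

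Of the genes lower after IL-4, some were far higher with LPS. Mx1 averaged 34.0 with IL-4, 83.0 in untreated cells and 22475 with LPS (−9.35), and Nod2 averaged 26.7, 66.7 and 1111 (−5.37). Others were lower still with LPS: Vsig4 averaged 69.3, 429 and 6.33 (3.26) and Hsf3 averaged 96.0, 613 and 5.00 (4.06). For Bank1, Abca1, Cx3cr1 and Ccr2 the difference between the stimuli did not pass (adjusted p of 0.476 to 0.833) and its sign changed with equal totals, and all 4 were below untreated with IL-4. Without replicate 1 the difference did pass for Abca1 (adjusted p = 9.26e-05) and Cx3cr1 (0.00102).

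**Figure D5:**
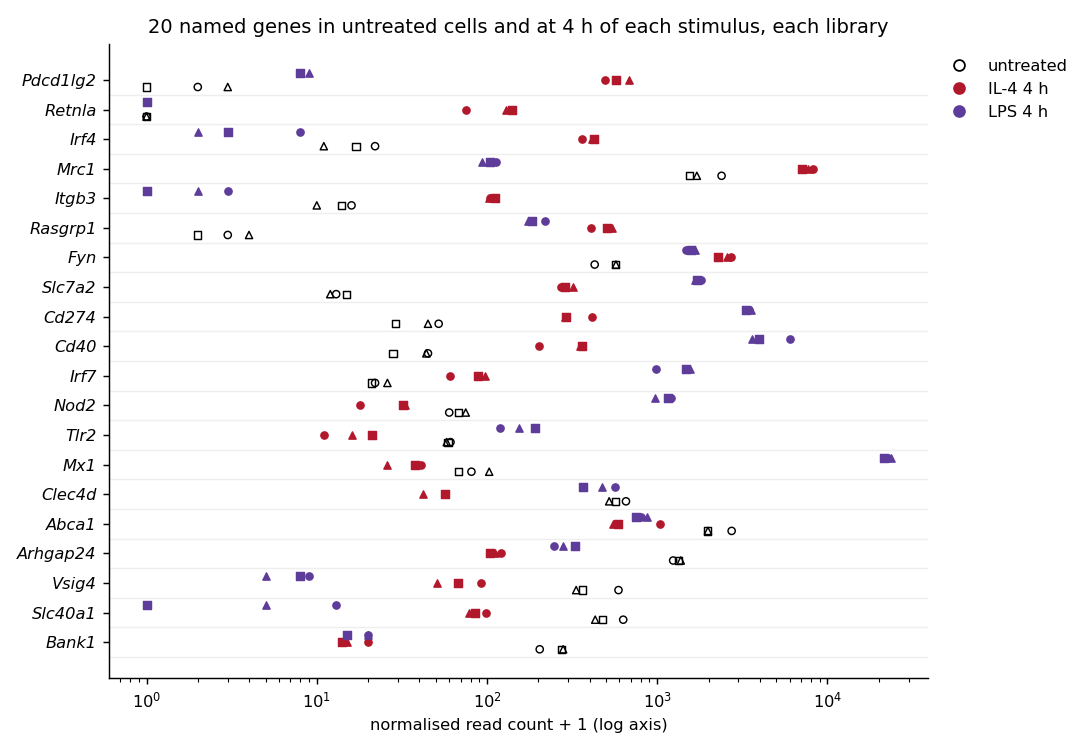
Normalised read count plus 1 (x axis, log scale) of 20 named genes in each library of untreated cells (open), IL-4 4 h (red) and LPS 4 h (purple), with circle, square and triangle for replicates 1, 2 and 3. Irf4, Mrc1 and Itgb3 are highest with IL-4, Slc7a2, Cd274 and Cd40 are raised with either stimulus and highest with LPS, and Mx1 is lowest with IL-4 and at 21391 or more with LPS.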

How the data were processed

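Chromatin-associated RNA was measured in 27 samples of BMDMs in 9 groups of 3, and groups were taken from the treatment labels. The authors isolated the chromatin fraction, built SMART-seq2 libraries primed with random hexamers, sequenced them single-end, aligned reads with TopHat2 2.1.1 to mm10, removed multi-mapping and blacklisted reads with bedtools 2.29.2, counted reads per gene over GRCm38.p6 and scaled libraries on invariant genes. What they deposited are whole-number roundings of these scaled counts, which were treated here as a score and not as raw counts. The impulse model that the study fitted to its courses was not used.

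Values were taken as log2(value + 1) and fitted with limma 3.58.1 in R 4.3.3, with a mean-variance trend and Benjamini-Hochberg adjustment over the 11955 genes at 0.05. The 15 untreated and IL-4 samples shared 1 fit, and all 27 samples were fitted for LPS. The fit was checked on simulated data. Members and gene lists were chosen with earlier results of these data known. Named genes were the 12 largest rises and 12 largest falls among protein-coding genes that passed, had a mean of at least 50 in the higher group and did not overlap, the 4 largest of either kind among non-coding genes that overlap no other gene, up to 4 members per list, and 18 genes given whatever their values. Some named genes are not reported here.

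Same-numbered samples of both groups deviated together (correlations of 0.583, 0.298 and 0.395 for replicates 1, 2 and 3). Replicate 2 correlated about as well with replicate 3 (0.373). Samples were paired by number only in an alternative, the replicate block. The main fit, which gave the calls and p-values unless stated, did not pair them. The pairing comes from the data and not from the labels. Alternatives were other pseudocounts, filters, scalings and sample sets, a replicate block, no trend, sample weights, replicates 2 and 3 averaged, and leaving out replicates or libraries. Depth is unknown except where given, and counting intervals cover counting error only.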

Additional observations from a re-analysis of the deposited data

Results flagged for a closer look

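For 17 named genes described here the change from untreated differed between 4 h and 2 h of IL-4 in the limma contrast of these times. Arhgap24 was lower at 4 h (log2 −2.42, adjusted p = 7.63e-08) under all 9 alternatives, Retnla was higher by 3.31 (adjusted p = 0.000662) except without replicate 3, and Fat3 was lower (−2.17, adjusted p = 0.000339) under 7 of 9. The other 14 lost the call with replicates 2 and 3 averaged, without replicate 2 and without replicate 3, and Pparg also with median-of-ratios scaling. Higher at 4 h were Kcnd3 by 2.52 (adjusted p = 0.00274), Scn3a by 1.94 (0.00205), Hhip by 1.58 (0.0350), Gm30605 by 0.89 (0.0152), Clec4d by 0.83 (0.0265), Ctsz by 0.82 (0.0221), Matk by 0.80 (0.0287) and Pparg by 0.79 (0.0307). Lower at 4 h were Cdk6 (log2 −1.57, 0.000924), Bank1 (−1.36, 0.00273), Il4ra (−1.13, 0.00103), 5430437J10Rik (−0.86, 0.0226), Mrc1 (−0.68, 0.00800) and Fyn (−0.46, 0.0329). Groups of 3 are too small for a search for outlying libraries.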

How the results depend on the processing

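Of the 93 named genes tested 89 passed, 71 of these kept the call under each of the 21 alternatives that held them, and 0 changed direction. Most named genes were chosen by their IL-4 4 h values, so that 89 passed largely follows from that choice. These counts do not carry over to all tested genes, of which 29.0% passed. The count of 3468 changed genes was 1898 with replicates 2 and 3 averaged and 1667 to 4439 with a replicate or library left out, and 2763 to 3136 without any 1 library. With the replicate block it was 4769, of which 3460 were also called without it. Median-of-ratios scaling gave 1522 higher and 1872 lower genes, 44.8% higher against 52.2%. Between 4 h and 2 h the 826 genes became 51 with replicates 2 and 3 averaged, 1913 with the block and 33 to 1811 without 1 replicate, and the cause was not tested. Between 4 h and 0.5 h the 3674 genes became 1856 with these averaged and 1545 to 5015 without 1 replicate. Between IL-4 and LPS the 8340 genes became 5170 of fewer genes tested with a mean of at least 50. Among named genes the block added Jak1, Pparg and Tlr4, as given above. Depth is unknown in 5 of the 6 libraries, and the spread between replicates sets the precision.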

Other observations

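Large amounts of chromatin-associated RNA changed in genes outside the lists, picked here after their values were seen. Mir99ahg, a long non-coding host gene of microRNAs, read 20012, 19091 and 20602 at IL-4 4 h and 4491, 4800 and 5330 in untreated cells (2.03 ± 0.08), and was already at a mean of 17746 at 2 h. Igf1, the insulin-like growth factor, read 7060, 5266 and 6485 against 2149, 1237 and 1418 (2.00 ± 0.22). The Wnt effector Tcf7l2 read 4989, 4610 and 4760 against 1095, 1001 and 905 (2.26 ± 0.10) and had averaged 8493 at 2 h. In these 3 genes every treated library was above every untreated one, and 97.3% of all changed genes had no overlap. The sodium-calcium exchanger Slc8a1 fell from 7321, 6447 and 6864 to 1660, 1054 and 1112 (−2.46 ± 0.16), and Pid1 from 10542, 8672 and 8839 to 3248, 2660 and 2991 (−1.66 ± 0.12).

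Families defined by the start of their symbols gave further counts. Cytosolic ribosomal protein genes (Rpl and Rps) had 19 of 57 higher and 0 lower (33.3% called, median 0.52), and subunits of respiratory complex I had 13 of 31 higher and 0 lower (41.9%, median 0.47). Zinc finger genes (Zfp) had 29 of 273 higher and 9 lower (13.9%), and Arhgap genes had 4 of 28 higher and 11 lower (53.6%). Shares are to be read against the 29.0% of all genes, and the difference between families was not tested.

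On the X chromosome, 3 of the large falls lie next to each other between 96239926 and 96456294: F630028O10Rik, which overlaps the microRNA gene Mir223 (−2.90), Vsig4 (−2.60) and Hsf3 (−2.62). They do not overlap one another in the annotation.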
